A study of Mus musculus with 27 samples.

Results

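Intermediate filament genes were followed across the 27 libraries of mouse heart RNA. The 9 genes were Krt8, Krt18, Krt19, Des, Vim, Nes, Synm, Lmna and Lmnb1, and they were found by matching the Ensembl identifiers of the count table to these symbols, which gave 9 of the 51826 genes in the table. The members were chosen by name as a family, with earlier results of these data known, and no level or change was part of the rule. Intermediate filaments are rope-like polymers of coiled-coil proteins that carry mechanical load. In the cytoplasm they join the nucleus, the contractile apparatus and the cell junctions, and under the inner nuclear membrane the lamins form the mesh that shapes the nucleus. In heart muscle desmin is the main cytoplasmic filament, whereas keratins are best known from epithelia.

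The keratins assemble from a type I and a type II partner. Krt8 (ENSMUSG00000049382, chromosome 15, 101996698 to 102004482, minus strand, GRCm38, which is mm10) encodes a type II keratin of simple epithelia, and Krt18 (ENSMUSG00000023043, chromosome 15, 102028180 to 102032027, plus strand) encodes its usual type I partner. Krt19 (ENSMUSG00000020911, chromosome 11, 100140810 to 100148665, minus strand) encodes another type I keratin of simple epithelia and mesothelium. Des (ENSMUSG00000026208, chromosome 1, 75360329 to 75368579, plus strand) encodes desmin, which links the Z discs of muscle. Vim (ENSMUSG00000026728, chromosome 2, 13573927 to 13582826, plus strand) encodes vimentin of fibroblasts, endothelium and other mesenchymal cells. Nes (ENSMUSG00000004891, chromosome 3, 87971078 to 87980451, plus strand) encodes nestin, a filament protein of progenitor cells and young vessels and muscle. Synm (ENSMUSG00000030554, chromosome 7, 67730160 to 67759742, minus strand) encodes synemin, which co-assembles with desmin and vimentin. Lmna (ENSMUSG00000028063, chromosome 3, 88480147 to 88509956, minus strand) encodes the A-type lamins and Lmnb1 (ENSMUSG00000024590, chromosome 18, 56707813 to 56753424, plus strand) a B-type lamin.

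Whole hearts of CD-1 mice were taken at postnatal day 14, with 3 hearts in each of 9 groups. PTU groups came from mothers fed iodine-deficient chow with 0.15% propylthiouracil, which blocks the making of thyroid hormone, from E13.5 of pregnancy onward. PHE groups received the alpha-adrenergic blocker phenoxybenzamine at 10 ug per g per day and PRO groups the beta-adrenergic blocker propranolol at 20 ug per g per day, injected under the skin from postnatal day 1. Sequencing set B held PTU+PRO, PTU, PRO and saline, and set A held PTU+PHE+PRO, PTU+PHE, PHE+PRO, PHE and saline. All pups were nursed by their mothers, and the chow of the other mothers is not given in the sources used here. PTU reached the pups through the mothers and the litter of a heart is not known, so litter, chow and drug cannot be told apart from hormone loss, and hearts of 1 group may not be independent. No hormone level is in the data.

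The libraries held 30791885 to 78913915 assigned reads, of which mitochondrial genes took 12.0% to 19.7%. All 12 cardiomyocyte markers were detected in every group, and their summed level was 36890 to 76260 CPM (counts scaled to library size) in all hearts. The 3 PHE hearts were male by Xist and Y-linked genes, and every other group held both sexes. Saline hearts of equal number in the 2 sets deviated from their group means together (r = 0.871, 0.872 and 0.914 across 10799 genes, which are not independent), against -0.646 to -0.072 for unequal numbers. Whether they are the same hearts is not given in the labels, so each treated group was compared only with the saline group of its own set. Long transcripts were under-represented in all 12 libraries with PHE, where genes with over 8000 exon bases stood at -0.89 to -0.04 log2 units relative to genes with under 1000, against 0.00 to 0.23 in the saline A hearts.

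Levels of the members are compared here as CPM per kilobase of exon, and desmin stood far above the rest. In saline hearts of set A, Des stood at 453.7 ± 18.7 CPM per kb (SD, n = 3 hearts here and below), Vim at 92.9 ± 1.77, Lmna at 22.9 ± 0.89 and Nes at 20.7 ± 4.73. Lmnb1 followed at 5.77 ± 1.07, Krt19 at 2.16 ± 1.05, Synm at 1.24 ± 0.15, Krt18 at 0.70 ± 0.23 and Krt8 at 0.20 ± 0.04. The order was the same in saline hearts of set B, from 455.9 ± 9.26 for Des to 0.19 ± 0.08 for Krt8. In PTU+PHE+PRO hearts Krt18 reached 27.5 ± 8.22 CPM per kb, beside Lmna at 33.6 ± 12.8, and in PTU+PHE hearts it was 23.9 ± 8.44. Desmin remained the most abundant member in all 9 groups, with 387.6 to 593.0 CPM per kb.

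Krt8 and Krt18 lie on chromosome 15 with 23697 bases between them, and both were called in the same direction in every PTU group. Their promoters are shown for that reason, as 300 bases from 250 before to 50 after the RefSeq start site (GRCm38.p6). Capitals mark AGGTCA, the core hexamer of nuclear receptor binding sites, and in Krt8 also TTTATAAA, in which TATAAA occurs on both strands and overlaps itself. The first is chr15:102004293-102004592 on the minus strand and the next chr15:102027966-102028265 on the plus strand.
Krt8: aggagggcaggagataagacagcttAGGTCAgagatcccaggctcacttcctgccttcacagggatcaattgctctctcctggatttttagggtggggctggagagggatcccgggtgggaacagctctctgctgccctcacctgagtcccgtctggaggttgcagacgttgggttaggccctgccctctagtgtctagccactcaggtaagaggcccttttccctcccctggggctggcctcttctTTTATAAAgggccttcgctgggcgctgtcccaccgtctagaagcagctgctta
Krt18: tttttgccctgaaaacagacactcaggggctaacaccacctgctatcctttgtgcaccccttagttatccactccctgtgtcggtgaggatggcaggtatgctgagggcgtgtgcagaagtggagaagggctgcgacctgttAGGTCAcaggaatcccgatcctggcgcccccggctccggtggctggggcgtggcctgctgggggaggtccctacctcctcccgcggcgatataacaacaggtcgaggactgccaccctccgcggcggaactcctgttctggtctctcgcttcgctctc

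AGGTCA began 225 bases before the start site of Krt8 and 108 before that of Krt18, and on either strand it occurs in 16.3% of 32851 RefSeq promoter windows. TATAAA occurs in 13.6% of the windows. RefSeq windows were found for 7 of the 9 members. AGGTCA was in none of those of Des, Vim, Nes and Synm, and it was at 1 of 2 start sites of Lmna. Neither keratin window held a direct repeat of AGGTCA with 4 bases between (0.0152% of windows), the AP-1 site TGANTCA (7.81%) or the GC box GGGCGG (35.7%), searched on both strands. A match of letters is a description and shows no binding.

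Hearts of PTU mothers carried more Krt8, Krt18 and Lmnb1 RNA and less Krt19 and Nes RNA than saline hearts, with or without adrenergic blockers. A member was called at an adjusted p under 0.05 in edgeR's quasi-likelihood test, with Benjamini-Hochberg adjustment over all 19119 genes tested, and all 9 members passed the filter on low counts. Krt8, the lowest member, reached the 0.184 CPM of that filter in 9 of the 15 libraries without PTU. In PTU+PRO hearts 4 members rose and 2 fell against saline, where 35.9% of all genes were called, 17.7% higher and 18.1% lower. In PTU hearts 6 rose and 2 fell, where 29.4% of all genes were called, 14.3% higher and 15.1% lower. In PTU+PHE+PRO hearts 5 rose and 2 fell, where 54.7% of genes were called, 28.7% higher and 26% lower. In PTU+PHE hearts 5 rose and 3 fell, where 53.4% were called, 28.2% higher and 25.2% lower. The hearts of the groups did not overlap for 9 members in PTU+PRO (56.9% of all genes), 9 in PTU (53.6%), 7 in PTU+PHE+PRO (54.7%) and 8 in PTU+PHE (57.1%). The median log2 fold change of the 9 members was 0.29 in PTU+PRO, 0.46 in PTU, 0.56 in PTU+PHE+PRO and 0.42 in PTU+PHE, against 0.01, 0.01, 0.04 and 0.04 over all genes.

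With adrenergic blockers alone fewer members were called than in the PTU groups. In PHE+PRO hearts 1 member fell and none rose, where 5.59% of all genes were called, 2.51% higher and 3.09% lower, and 5 members did not overlap with saline, as did 28.4% of all genes. In PHE hearts 3 rose and none fell, where 14.8% of genes were called, 8.14% higher and 6.64% lower, and 6 members did not overlap with saline, as did 40.9% of all genes. In PRO hearts edgeR called none of the 9, where 0.272% of all genes were called. At an unadjusted p under 0.05 in edgeR there were 6 members in PHE+PRO hearts, 5 in PHE hearts and 4 in PRO hearts. DESeq2 called 3 members in PHE+PRO hearts, 4 in PHE hearts and 2 in PRO hearts. Between the saline groups of sets A and B edgeR called none of the 9 (4.26% of genes called; 0 members at an unadjusted p under 0.05; 0 by DESeq2), and 1 member did not overlap, as did 23.5% of all genes.

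**Figure D1:**
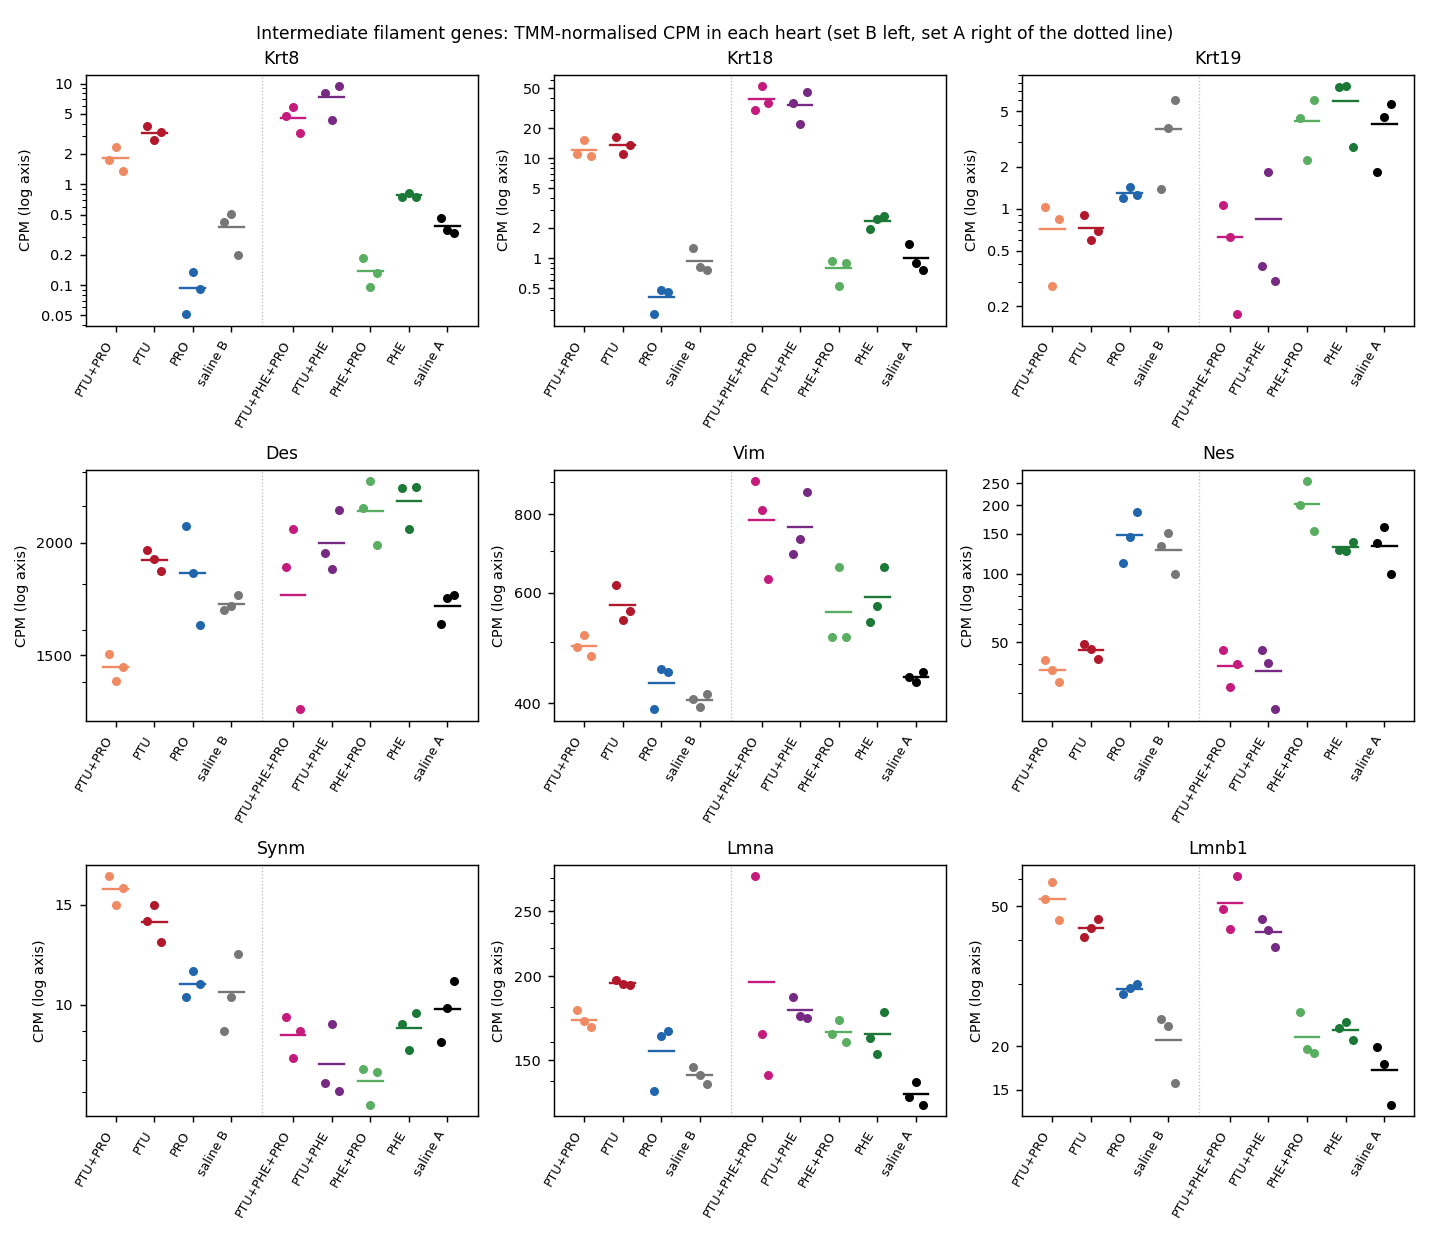
Normalised level of each member in each heart, in CPM on log axes, with set B left and set A right of the dotted line. Points are hearts and bars are means of 3 hearts. In the panels of Krt8 and Krt18 the 4 PTU groups lie above all other groups, and in the panel of Nes they lie below them.

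Krt18 had the largest fold changes of the family in the PTU groups of both sets. It stood at 11, 15.1 and 10.5 CPM in PTU+PRO hearts, at 16.2, 11.1 and 13.6 CPM in PTU hearts, and at 1.27, 0.805 and 0.753 CPM in saline hearts of set B. In set A it stood at 30.4, 52.8 and 35.3 CPM in PTU+PHE+PRO hearts, at 35.4, 21.8 and 46.0 CPM in PTU+PHE hearts, and at 1.38, 0.886 and 0.764 CPM in saline hearts. Every PTU heart lay above every heart without PTU, and the lowest PTU heart (10.5 CPM) was well above the highest heart without PTU (2.66 CPM, in PHE). The log2 fold change over saline was 3.69 ± 0.31 (SE) in PTU+PRO hearts (adjusted p = 2.3e-09) and 5.30 ± 0.32 in PTU+PHE+PRO hearts (adjusted p = 8.1e-12), which is 39.3-fold. All 34 alternatives of the processing called Krt18 in each of the 4 PTU groups.

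Krt8, the partner of Krt18, moved the same way from a lower level. It stood at 1.73, 2.37 and 1.34 CPM in PTU+PRO hearts, at 3.77, 2.76 and 3.27 CPM in PTU hearts, and at 0.418, 0.508 and 0.197 CPM in saline hearts of set B. In set A it stood at 4.77, 5.82 and 3.20 CPM in PTU+PHE+PRO hearts, at 8.13, 4.37 and 9.46 CPM in PTU+PHE hearts, and at 0.465, 0.354 and 0.327 CPM in saline hearts. Again no PTU heart overlapped a heart without PTU, the highest of which was a PHE heart at 0.829 CPM. Krt8 was higher than saline by 2.28 ± 0.33 log2 units in PTU+PRO (adjusted p = 7.9e-06), by 3.13 ± 0.34 in PTU (adjusted p = 1.2e-07), by 3.59 ± 0.34 in PTU+PHE+PRO (adjusted p = 7e-09) and by 4.26 ± 0.34 in PTU+PHE (adjusted p = 6.9e-10). The saline groups of the sets differed by 0.04 ± 0.37 for Krt8 and 0.09 ± 0.33 for Krt18 (set A minus set B). PTU+PHE and PTU hearts were never in the same set and were not tested against each other.

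Without PTU both keratins were low, and they were lower in PHE+PRO than in PHE hearts. Krt18 stood at 0.931, 0.529 and 0.902 CPM in PHE+PRO hearts and at 1.97, 2.47 and 2.66 CPM in PHE hearts. Krt8 stood at 0.186, 0.096 and 0.133 CPM in PHE+PRO hearts and at 0.748, 0.829 and 0.746 CPM in PHE hearts. For both genes the PHE+PRO hearts lay below the PHE hearts without overlap. Against saline, Krt8 stood at -1.43 ± 0.45 in PHE+PRO (adjusted p = 0.06) and Krt18 at -0.34 ± 0.35 (adjusted p = 0.6). Adding PRO to PHE lowered Krt8 by 2.44 ± 0.42 log2 units (adjusted p = 0.0013) and Krt18 by 1.57 ± 0.33 (adjusted p = 0.0064), and these were the 2 members called in that comparison, where 5.82% of all genes were called and 4 members did not overlap (27.6% of all genes). With a replicate number as a block the same differences were -2.11 and -1.34 log2 units. That fit left out the 2 unnumbered PHE+PRO hearts and so held 1 heart of that group. The other 33 of 34 alternatives called both genes.

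Krt18 rose 2.34-fold over saline in PHE hearts (log2 1.23 ± 0.31, adjusted p = 0.016), while Krt8 stood 1.02 ± 0.35 log2 units over saline and missed the threshold (adjusted p = 0.0505). Over the alternatives the adjusted p of Krt18 ran from 0.0016 to 0.089 and that of Krt8 from 0.022 to 0.18, and a fit of set A alone called no member in PHE hearts. Krt18 was also not called without saline A heart 2, saline A heart 3 or PHE heart 3. The sum of the 16 genes of the G2 and M phases was 170.2 to 239.9 CPM in PHE hearts and 103.7 to 175.4 CPM in saline hearts. Of these genes 7 rose and none fell in PHE hearts (median log2 fold change 0.67), where 8.14% of all genes rose. The count was 4 with the length offset, 5 with sex as a covariate and 0 when set A was fitted by itself. The part of these 16 genes in the keratin values was not tested.

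PRO hearts had the lowest mean of Krt8 and of Krt18 among the 9 groups. Krt8 stood at 0.051, 0.136 and 0.092 CPM there, which rests on 3, 8 and 5 reads, and Krt18 stood at 0.274, 0.476 and 0.462 CPM, on 16, 28 and 25 reads. All PRO hearts lay below all saline hearts of set B for both genes, and 3 members in all did not overlap, as did 19.4% of all genes. The log2 difference was -1.96 ± 0.45 for Krt8 (adjusted p = 0.0579) and -1.22 ± 0.37 for Krt18 (adjusted p = 0.21). Neither passed the threshold, and over 34 alternatives the adjusted p ran from 0.0012 to 0.24 for Krt8, with 9 calls, and from 0.032 to 0.62 for Krt18, with 1 call.

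Against a background of PRO, PTU raised Krt8 by 4.24 ± 0.40 log2 units and Krt18 by 4.91 ± 0.34 (adjusted p = 1.4e-08 and 1.3e-10). In that comparison 6 members were called, where 30.2% of all genes were, and 9 did not overlap, as did 54.6% of all genes. Against PHE+PRO it raised Krt8 by 5.02 ± 0.39 and Krt18 by 5.64 ± 0.33, a 49.9-fold difference (adjusted p = 7e-12). Here 7 members were called, where 47.0% of all genes were, and 6 did not overlap (45.1% of all genes). Against PHE it raised Krt8 by 3.24 ± 0.32 and Krt18 by 3.87 ± 0.29, and 6 members were called, where 36.8% of all genes were, and 6 did not overlap (43.8% of all genes). These comparisons share their PTU hearts with those against saline.

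Beside PTU, adding PRO did not move the keratins past the threshold. Krt18 was -0.16 ± 0.26 log2 units apart when PRO was added to PTU and 0.20 ± 0.25 apart when it was added to PTU+PHE, and Krt8 was -0.85 ± 0.29 and -0.67 ± 0.28 apart (adjusted p = 0.24 and 0.22). edgeR called none of the 9 members when PRO was added to PTU (0.643% of genes called; 6 members without overlap, beside 28.6% of all genes; 2 members at an unadjusted p under 0.05; 0 by DESeq2) and none when it was added to PTU+PHE (2.87% of genes called; 0 members without overlap, beside 11.7% of all genes; 1 member at an unadjusted p under 0.05; 0 by DESeq2). The interaction asks whether the effect of PTU differed with PRO on board. Under PHE it was 1.77 ± 0.41 log2 units for Krt18 (adjusted p = 0.036) and 1.78 ± 0.51 for Krt8 (adjusted p = 0.089), and Krt18 was the 1 member called among 1.05% of all genes. The value of Krt18 was 1.53 with the replicate block, which held 1 PHE+PRO heart. Of 34 alternatives 22 called Krt18, with 0.0023 as the lowest adjusted p. Neither the fit of set A alone (adjusted p = 0.14 for Krt18) nor sex as a covariate called a member. Krt18 was also not called there without the filter on low counts, nor when any of PHE hearts 1 to 3, PHE+PRO hearts 1 and 2a, PTU+PHE hearts 1 and 2 or PTU+PHE+PRO heart 2 was left out. In set B the interaction was 1.06 ± 0.45 for Krt18 and 1.11 ± 0.54 for Krt8, and edgeR called no member there (0.0157% of genes called; 3 members at an unadjusted p under 0.05; 0 by DESeq2).

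The balance of the keratin partners differed as well. The log2 ratio of Krt18 to Krt8 CPM was 2.67, 2.67 and 2.97 in PTU+PRO hearts, 2.10, 2.01 and 2.05 in PTU hearts, 2.42, 1.81 and 2.32 in PRO hearts, and 1.61, 0.66 and 1.93 in saline hearts of set B. In set A it was 2.67, 3.18 and 3.46 in PTU+PHE+PRO hearts, 2.12, 2.32 and 2.28 in PTU+PHE hearts, 2.32, 2.46 and 2.77 in PHE+PRO hearts, 1.39, 1.57 and 1.83 in PHE hearts, and 1.56, 1.32 and 1.22 in saline hearts. All hearts of each PTU group and of PHE+PRO lay above the saline hearts of their set, while PRO and PHE hearts overlapped with saline. The mean ratio exceeded saline by 1.37 log2 units in PTU+PRO, 0.65 in PTU, 1.74 in PTU+PHE+PRO, 0.87 in PTU+PHE and 1.15 in PHE+PRO, each with a two-sided exact permutation p = 0.1, which is the smallest that 3 against 3 hearts allow. For PRO it was 0.78 (exact permutation p = 0.2) and for PHE 0.23 (exact permutation p = 0.2). Without saline B heart 2 the difference was 0.29 in PTU and 0.41 in PRO. The ratio rests on few Krt8 reads where PRO was given without PTU, and with 1 CPM added to both genes the differences were -0.14 in PRO and 0.12 in PHE+PRO.

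**Figure D2:**
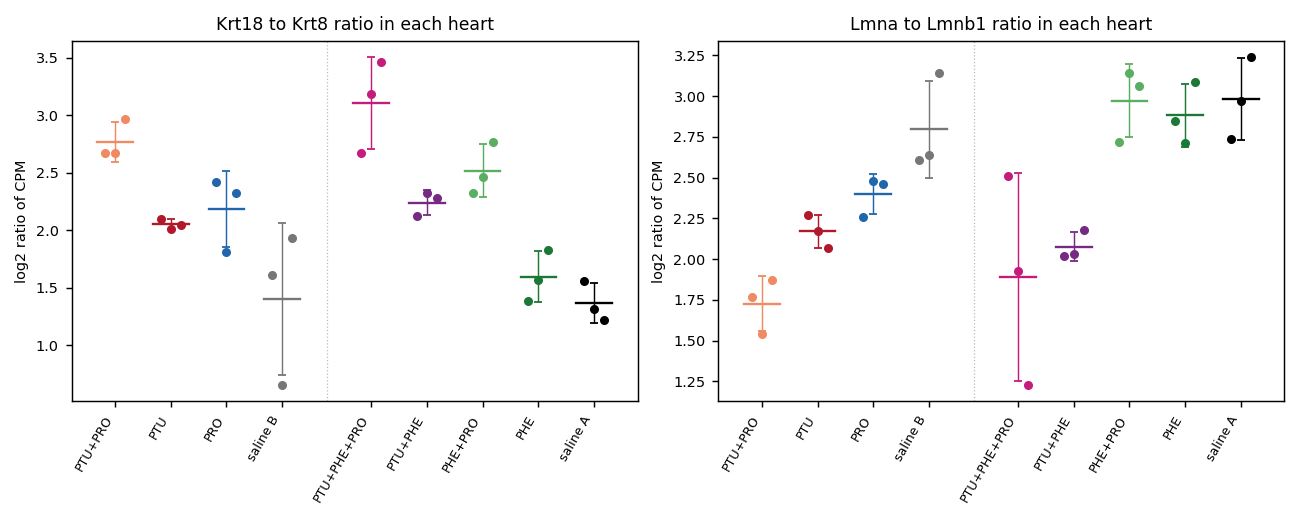
Log2 ratio of Krt18 to Krt8 CPM (left panel) and of Lmna to Lmnb1 CPM (right panel) in each heart. Points are hearts, and bars with whiskers are means ± SD of 3 hearts. In the left panel the PTU+PHE+PRO hearts are highest on average (3.11 ± 0.40), and in the right panel all PTU hearts lie below the saline hearts of their set.

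Krt19 went the other way. It stood at 1.02, 0.279 and 0.838 CPM in PTU+PRO hearts, at 0.897, 0.602 and 0.697 CPM in PTU hearts, at 1.20, 1.43 and 1.26 CPM in PRO hearts, and at 1.39, 3.77 and 5.99 CPM in saline hearts of set B. In set A it stood at 1.07, 0.623 and 0.176 CPM in PTU+PHE+PRO hearts, at 0.392, 1.83 and 0.305 CPM in PTU+PHE hearts, and at 1.84, 4.57 and 5.62 CPM in saline hearts. The PTU hearts lay below the saline hearts of their set without overlap, but PTU+PHE heart 2 (1.83 CPM) came close to saline A heart 1 (1.84 CPM). Krt19 fell by 2.37 ± 0.67 log2 units in PTU+PRO (adjusted p = 0.0081), by 2.34 ± 0.67 in PTU (adjusted p = 0.011), by 2.60 ± 0.69 in PTU+PHE+PRO (adjusted p = 0.0033) and by 2.25 ± 0.67 in PTU+PHE (adjusted p = 0.0076). Without saline B heart 3 the values were -1.84 in PTU+PRO and -1.82 in PTU, with adjusted p = 0.053 and 0.069, the highest over the alternatives (lowest 0.00055 and 0.0031).

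Krt19 varied widely within the saline groups. PHE hearts stood at 7.48, 7.56 and 2.79 CPM, and PHE+PRO hearts at 4.43, 2.21 and 6.05 CPM. Neither group differed from saline beyond that spread (log2 0.57 ± 0.61 and 0.07 ± 0.62, adjusted p = 0.56 and 0.96). PRO hearts were 1.52 ± 0.65 log2 units lower than saline (adjusted p = 0.51) and overlapped with them. Adding PTU to PRO gave -0.85 ± 0.67 (adjusted p = 0.38).

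The mesothelium, the sheet of cells on the heart's surface, makes simple keratins, and its markers are given beside them. Msln, the mesothelin gene, stood at 2.54, 2.25 and 0.323 CPM in PTU+PHE+PRO hearts, at 0.993, 7.57 and 0.509 CPM in PTU+PHE hearts, and at 1.69, 0.039 and 0.727 CPM in saline hearts of set A. PTU+PHE heart 2 had the most Msln and the most Upk3b, a uroplakin of mesothelium (7.53 CPM), of all 27 hearts. In the same order, PTU+PHE hearts stood at 35.4, 21.8 and 46.0 CPM of Krt18 and at 0.392, 1.83 and 0.305 CPM of Krt19. Saline A hearts stood at 1.84, 4.57 and 5.62 CPM of Krt19. In set B Msln stood at 1.43, 0.221 and 3.00 CPM in PTU+PRO hearts, at 0.471, 0.866 and 0.291 CPM in PTU hearts, and at 1.52, 0.106 and 1.08 CPM in saline hearts.

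Of the 11 mesothelial markers all were detected in every group. Among all genes 17.7% rose in PTU+PRO, 14.3% in PTU, 28.7% in PTU+PHE+PRO and 28.2% in PTU+PHE. Against saline 2 of the mesothelial markers rose in PTU+PRO, 1 in PTU, 2 in PTU+PHE+PRO and 2 in PTU+PHE, and none fell. These were Aldh1a2, a retinoic acid synthase (1.21 log2 units in PTU+PHE+PRO, adjusted p = 2.8e-07), and, except in PTU, Tbx18, a T-box factor of epicardium (1.47 there, adjusted p = 1e-06), while Msln, Upk3b, Upk1b, Lrrn4 and Muc16 were not called in any of the 7 comparisons against saline. Without PTU, 1 marker rose in PHE+PRO (Wt1, an epicardial zinc finger factor, 0.71 log2 units, adjusted p = 0.022) and none in PHE or PRO. The summed marker level was 77.0 to 87.0 CPM in PTU+PRO, 63.5 to 66.4 in PTU, 57.8 to 74.2 in PRO and 51.2 to 55.1 in saline hearts of set B. In set A it was 105.6 to 109.0 CPM in PTU+PHE+PRO, 71.6 to 103.4 in PTU+PHE, 58.4 to 70.3 in PHE+PRO, 51.8 to 61.6 in PHE and 50.99 to 55.45 in saline hearts. Aldh1a2, Tbx18 and Wt1 made up most of this sum. In PTU+PHE+PRO heart 1 they stood at 62.2, 18.6 and 15.3 CPM, beside 2.54 CPM of Msln and 2.92 CPM of Upk3b. Of 13 markers of other epithelia 5 were tested, and 1 of them rose in each of PTU, PTU+PHE+PRO, PTU+PHE and PHE+PRO. The sum over the 13 stayed within 2.92 to 7.25 CPM in all hearts. The part of these cells in the keratin values was not tested. In bulk RNA fewer cells of a type and less RNA per cell cannot be told apart.

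**Figure D3:**
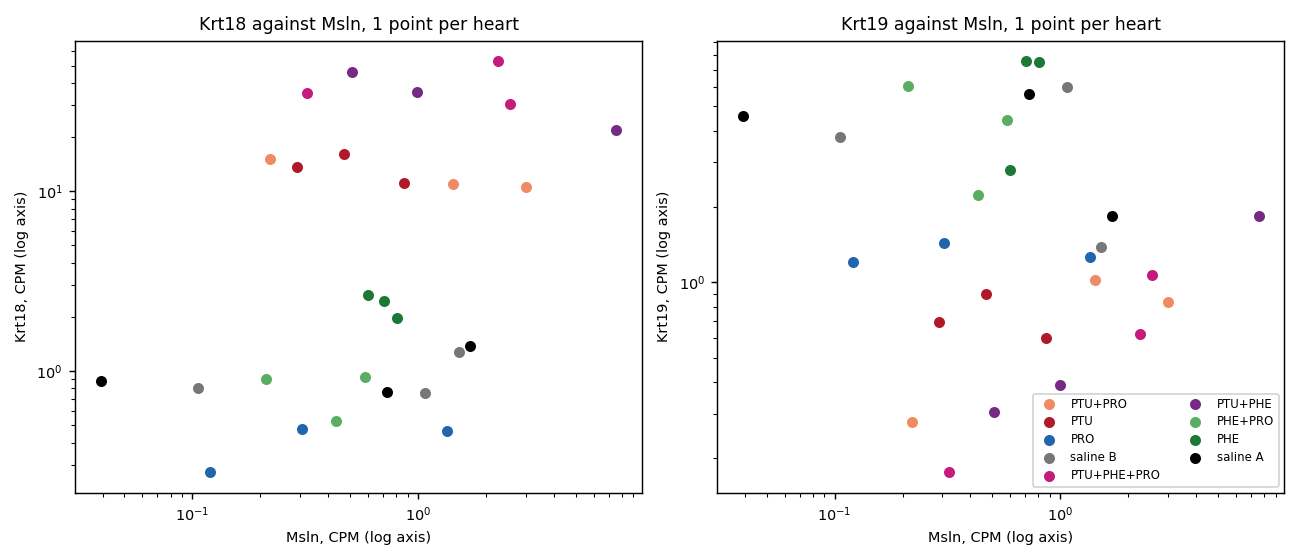
Krt18 (left panel) and Krt19 (right panel) against the mesothelial marker Msln, all in CPM on log axes, with 1 point per heart coloured by group. PTU hearts lie at 10.5 to 52.8 CPM of Krt18 at 0.221 to 7.57 CPM of Msln.

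Desmin RNA stood between -0.23 and 0.39 log2 units from saline in all treated groups. In set B it was 1403 to 1505 CPM in PTU+PRO hearts, 1861 to 1966 CPM in PTU hearts, 1622 to 2088 CPM in PRO hearts and 1683 to 1750 CPM in saline hearts. In set A it was 1306 to 2071 CPM in PTU+PHE+PRO hearts, 1870 to 2177 CPM in PTU+PHE hearts, 1990 to 2342 CPM in PHE+PRO hearts, 2073 to 2305 CPM in PHE hearts and 1623 to 1750 CPM in saline hearts. The PTU hearts lay above and the PTU+PRO hearts below the saline hearts, without overlap, yet neither difference was called (log2 0.16 ± 0.12 and -0.23 ± 0.12, adjusted p = 0.34 and 0.14). PHE+PRO, PTU+PHE and PHE hearts also lay above saline without overlap. Des stood at 0.35 ± 0.12 in PHE+PRO (adjusted p = 0.087) and at 0.23 ± 0.12 in PTU+PHE (adjusted p = 0.11). Des was called against saline in PHE hearts only (log2 0.39 ± 0.12, adjusted p = 0.037), and 11 of 34 alternatives did not call it (adjusted p from 0.0078 to 0.17). These were a fit of set A alone, the length offset, the replicate block, and leaving out any saline A or PHE heart, saline B heart 2 or PRO heart 2.

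PTU lowered Des when added to PRO (log2 -0.35 ± 0.12, adjusted p = 0.031) and when added to PHE+PRO (-0.31 ± 0.12, adjusted p = 0.038). The value against PHE+PRO was -0.14 (adjusted p = 0.28, the highest of alternatives that began at 0.0031) without PTU+PHE+PRO heart 3, which had the lowest Des level of all (1306 CPM) and the shallowest library. It was also not called in a fit of set A alone or without PHE+PRO heart 2a, and it was -0.30 with the replicate block, which held 1 PHE+PRO heart. The value against PRO was not called without PRO heart 1 or any 1 of the PTU+PRO hearts. The span of the antisense gene Gm15179, which had a mean of 1.15 CPM, overlaps that of Des. The strand setting of the counting is not given in the sources used here, and overlap of exons was not checked. How reads of any shared exon bases were counted is therefore not known.

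Vimentin RNA was higher with PTU and with PHE. It was 477 to 514 CPM in PTU+PRO hearts, 542 to 617 CPM in PTU hearts, 391 to 454 CPM in PRO hearts and 394 to 414 CPM in saline hearts of set B. In set A it was 631 to 904 CPM in PTU+PHE+PRO hearts, 692 to 868 CPM in PTU+PHE hearts, 509.7 to 660.0 CPM in PHE+PRO hearts, 540 to 660 CPM in PHE hearts and 432 to 449 CPM in saline hearts. All groups except PRO lay above their saline hearts without overlap. Vim rose by 0.50 ± 0.12 log2 units in PTU (adjusted p = 0.0025), by 0.83 ± 0.12 in PTU+PHE+PRO (1.78-fold, adjusted p = 4.4e-06), by 0.79 ± 0.12 in PTU+PHE (adjusted p = 9.5e-06) and by 0.42 ± 0.12 in PHE (adjusted p = 0.026). The PHE call was absent when set A was fitted by itself, or without any 1 saline A heart, PHE heart 2 or PHE heart 3 (adjusted p from 0.0094 to 0.16 over the alternatives). In PTU+PRO Vim stood 0.29 ± 0.12 over saline and in PHE+PRO 0.35 ± 0.12, without passing (adjusted p = 0.066 and 0.09).

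Markers of the cell types best known for vimentin fell more often than they rose in 3 of the 4 PTU groups for fibroblasts and in all 4 for endothelium. Over all genes 17.7% rose and 18.1% fell in PTU+PRO, and 14.3% rose and 15.1% fell in PTU. In PTU+PHE+PRO 28.7% of all genes rose and 26% fell, and in PTU+PHE 28.2% rose and 25.2% fell. Of 10 fibroblast markers 2 rose and 5 fell in PTU+PRO, 2 rose and 2 fell in PTU, 1 rose and 6 fell in PTU+PHE+PRO, and 1 rose and 7 fell in PTU+PHE. Their summed level was 4908 to 5192 CPM in PTU+PRO, 6329 to 6819 in PTU and 5364 to 5881 in saline hearts of set B. In set A it was 2700 to 4955 CPM in PTU+PHE+PRO, 3422 to 4142 in PTU+PHE and 5410 to 5703 in saline hearts. The sum lay above saline in PTU and below it in the other PTU groups, without overlap. In PTU, Postn, the periostin gene, and Tcf21 rose by 1.37 and 0.66 log2 units (adjusted p = 5.5e-08 and 0.0014). Pdgfra and Dcn fell there by 0.57 and 0.34 (adjusted p = 0.0012 and 0.018). Of 14 endothelial markers none rose and 10 fell in PTU+PRO, none rose and 6 fell in PTU, none rose and 9 fell in PTU+PHE+PRO, and 1 rose and 9 fell in PTU+PHE. The summed endothelial level was 1715 to 1870 CPM in PTU+PRO, 1938 to 2125 CPM in PTU and 2514 to 2544 CPM in saline hearts of set B. All 12 macrophage markers fell in each of the 4 PTU groups, with summed levels of 97.3 to 120.7 CPM in PTU+PRO and 236.1 to 276.0 CPM in saline hearts of set B. The part of these cells in the Vim values was not tested.

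Nestin RNA was lower in every PTU heart than in any other heart. It stood at 41.9, 37.8 and 33.5 CPM in PTU+PRO hearts, at 49.3, 46.7 and 42.3 CPM in PTU hearts, and at 133.0, 151.1 and 99.3 CPM in saline hearts of set B. In set A it stood at 46.1, 31.9 and 40.3 CPM in PTU+PHE+PRO hearts, at 46.1, 40.6 and 25.3 CPM in PTU+PHE hearts, and at 137.2, 160.3 and 100.1 CPM in saline hearts. Nes fell by 1.76 ± 0.23 log2 units in PTU+PRO (adjusted p = 1.9e-06), by 1.47 ± 0.23 in PTU (2.77-fold lower, adjusted p = 2.5e-05), by 1.75 ± 0.23 in PTU+PHE+PRO (adjusted p = 1.3e-06) and by 1.83 ± 0.23 in PTU+PHE (adjusted p = 8.6e-07). All 34 alternatives called it in each of these.

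Without PTU, Nes levels were spread more widely. They stood at 111.3, 144.4 and 186.2 CPM in PRO hearts, at 199.9, 255.4 and 154.6 CPM in PHE+PRO hearts and at 127.8, 126.2 and 137.4 CPM in PHE hearts. PHE+PRO hearts were 0.62 ± 0.22 log2 units above saline (adjusted p = 0.1) and 0.64 ± 0.22 above PHE hearts without overlap (adjusted p = 0.09), neither past the threshold. Adding PTU to PHE+PRO lowered Nes 5.16-fold (log2 -2.37 ± 0.23, adjusted p = 2.9e-08). The endothelial markers Tie1 and Tek, receptors of vessels, fell by 0.68 and 0.46 log2 units in PTU, and their part in the Nes values was not tested.

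Synemin RNA was higher than in saline hearts with PTU in set B and not in set A, where every PTU group also received PHE. In set B it stood at 16.84, 15.01 and 16.07 CPM in PTU+PRO hearts, at 14.06, 14.98 and 12.88 CPM in PTU hearts, and at 8.98, 10.3 and 12.3 CPM in saline hearts. In set A it stood at 9.53, 8.05 and 8.97 CPM in PTU+PHE+PRO hearts, at 7.28, 9.26 and 7.04 CPM in PTU+PHE hearts, at 7.69, 6.67 and 7.61 CPM in PHE+PRO hearts, and at 8.61, 9.86 and 11.02 CPM in saline hearts. The PTU hearts of set B lay above saline without overlap, whereas those of set A overlapped with saline. PTU+PHE+PRO hearts lay above PHE+PRO hearts without overlap (log2 0.27 ± 0.13, adjusted p = 0.081). With an offset for transcript length that value was 0.35 (adjusted p = 0.015), the 1 call among 34 alternatives. Adding PTU to PHE gave -0.21 ± 0.13 (adjusted p = 0.2). Synm rose by 0.60 ± 0.13 log2 units in PTU+PRO (adjusted p = 0.0005) and by 0.41 ± 0.13 in PTU (adjusted p = 0.015, and 0.31 with adjusted p = 0.1 without saline B heart 1, where the alternatives began at 0.0053). The PTU call was also absent without saline B heart 2 or PTU heart 2.

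In set A, Synm fell by 0.32 ± 0.13 in PTU+PHE (adjusted p = 0.034) and by 0.43 ± 0.13 in PHE+PRO (adjusted p = 0.0497), and stood at -0.15 ± 0.13 in PTU+PHE+PRO (adjusted p = 0.32). Synm has the longest exon span of the family (7933 bases), and long transcripts were low in all PHE libraries. In set B the long genes stood at 0.38 to 0.49 log2 units relative to the short ones in the PTU+PRO and PTU hearts, against 0.11 to 0.29 in the saline hearts, the direction in which Synm rose there. With an offset for transcript length the rise of Synm was 0.58 in PTU+PRO (adjusted p = 0.0002) and 0.39 in PTU (adjusted p = 0.0083). In set A the value with that offset was -0.15 in PTU+PHE (adjusted p = 0.26) and -0.35 in PHE+PRO (adjusted p = 0.07). Over all alternatives the adjusted p ran from 0.007 to 0.26 in PTU+PHE. In PHE+PRO it ran from 0.015 to 0.21, apart from the replicate block, which held 1 PHE+PRO heart and gave -0.33. The PTU+PHE call was absent in 7 of 34 alternatives, among them those without saline A heart 2 or 3 and without PTU+PHE heart 1 or 3, and the PHE+PRO call in 19, among them those without any 1 PHE+PRO heart. The span of Ttc23 overlaps that of Synm on the opposite strand, with a mean of 12.8 CPM, near the level of Synm itself. Overlap of exons was not checked for this pair either, so how reads of any shared exon bases were counted is not known.

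Lmnb1 rose in all 4 PTU groups and Lmna, by less, in 3 of them. Lmnb1 stood at 52.3, 58.8 and 45.9 CPM in PTU+PRO hearts, at 40.8, 43.4 and 46.2 CPM in PTU hearts, at 28.1, 29.3 and 30.1 CPM in PRO hearts, and at 23.9, 22.9 and 15.8 CPM in saline hearts of set B. In set A it stood at 49.3, 43.2 and 60.9 CPM in PTU+PHE+PRO hearts, at 45.9, 42.8 and 38.3 CPM in PTU+PHE hearts, and at 19.9, 17.8 and 13.6 CPM in saline hearts. All PTU hearts lay above all hearts without PTU. Lmnb1 rose by 1.33 ± 0.15 log2 units in PTU+PRO (adjusted p = 2.6e-07), by 1.06 ± 0.15 in PTU (adjusted p = 8.8e-06), by 1.58 ± 0.16 in PTU+PHE+PRO (2.99-fold, adjusted p = 1.4e-08) and by 1.31 ± 0.15 in PTU+PHE (adjusted p = 2.6e-07). PRO hearts stood 0.49 ± 0.15 above saline without overlap (adjusted p = 0.24).

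Lmna, the A-type lamin gene, was 167.9 to 178.0 CPM in PTU+PRO hearts, 194.4 to 197.6 CPM in PTU hearts, and 138.4 to 146.6 CPM in saline hearts of set B. In set A it stood at 281.5, 164.4 and 142.9 CPM in PTU+PHE+PRO hearts, at 186.2, 174.7 and 173.7 CPM in PTU+PHE hearts, and at 132.4, 139.2 and 129.0 CPM in saline hearts. Every PTU heart lay above the saline hearts of its set, and PTU+PHE+PRO heart 1 stood apart from all others. PHE+PRO hearts (159.8 to 172.1 CPM) and PHE hearts (153.3 to 177.2 CPM) also lay above saline without overlap. They stood at 0.31 ± 0.15 and 0.30 ± 0.15 log2 units (adjusted p = 0.22 and 0.16). Lmna rose by 0.46 ± 0.15 log2 units in PTU (adjusted p = 0.021), by 0.42 ± 0.15 in PTU+PHE (adjusted p = 0.02) and by 0.56 ± 0.15 in PTU+PHE+PRO (adjusted p = 0.0027), the last of which was 0.20 (adjusted p = 0.058) without heart 1 and reached adjusted p = 7.6e-05 at the other end of the alternatives. In PTU+PRO it stood at 0.28 ± 0.15 (adjusted p = 0.15). Adding PTU to PRO, PHE+PRO or PHE gave 0.16 ± 0.15, 0.25 ± 0.15 and 0.12 ± 0.15, none past the threshold (adjusted p = 0.46, 0.17 and 0.56). The PTU call was absent without saline B heart 2, saline B heart 3 or PTU heart 1 (adjusted p up to 0.073), and the PTU+PHE call in a fit of set A alone or without saline A heart 1, saline A heart 3 or PTU+PHE heart 1 (up to 0.091).

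The log2 ratio of Lmna to Lmnb1 CPM was 1.77, 1.54 and 1.87 in PTU+PRO hearts, 2.27, 2.17 and 2.07 in PTU hearts, 2.26, 2.48 and 2.46 in PRO hearts, and 2.61, 2.64 and 3.14 in saline hearts of set B. In set A it was 2.51, 1.93 and 1.23 in PTU+PHE+PRO hearts, 2.02, 2.03 and 2.18 in PTU+PHE hearts, and 2.74, 2.97 and 3.24 in saline hearts. All PTU hearts and all PRO hearts lay below the saline hearts of their set. The mean difference from saline was -1.07 in PTU+PRO, -0.63 in PTU, -0.40 in PRO, -1.09 in PTU+PHE+PRO and -0.90 in PTU+PHE, each with the smallest two-sided exact permutation p that 3 against 3 hearts allow (p = 0.1). Without saline B heart 3 the PRO difference was -0.23. In PHE+PRO and PHE the difference was -0.01 and -0.10 (exact permutation p = 0.9 and 0.6).

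Genes of the G2 and M phases, a mark of dividing cells, are given beside Lmnb1. Among all genes 17.7% rose in PTU+PRO, 14.3% in PTU, 28.7% in PTU+PHE+PRO and 28.2% in PTU+PHE. Of the 16 genes of these phases 8 rose in PTU+PRO, 1 in PTU, 15 in PTU+PHE+PRO and 15 in PTU+PHE, and none fell. Their summed level was 185.6 to 211.9 CPM in PTU+PRO, 150.8 to 164.9 CPM in PTU and 94.2 to 151.0 CPM in saline hearts of set B, and 387.3 to 479.1 CPM in PTU+PHE+PRO, 363.4 to 387.4 CPM in PTU+PHE and 103.7 to 175.4 CPM in saline hearts of set A. The PTU count was 4 in a fit of set B alone, 5 with the length offset and 6 with sex as a covariate. Their part in the Lmnb1 values was not tested.

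**Figure D4:**
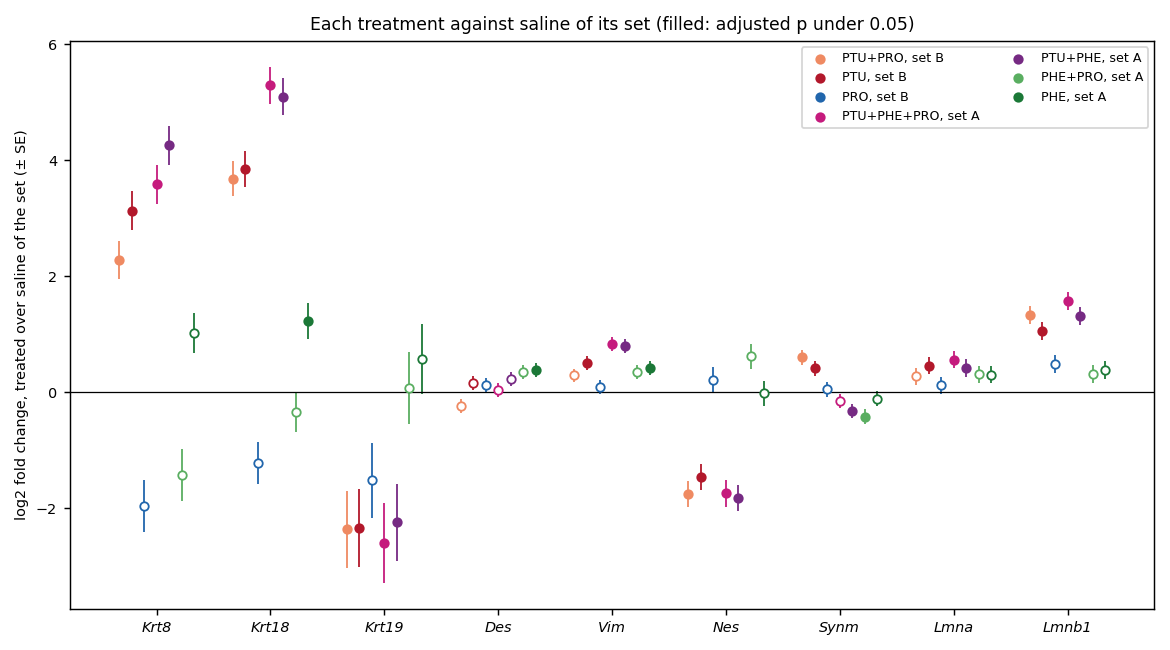
Log2 fold change of each member over saline of its set, for the 7 treated groups, with bars of ± SE. Filled points passed an adjusted p under 0.05 and open points did not. The largest rises are those of Krt18 (5.30 in PTU+PHE+PRO) and Krt8 (4.26 in PTU+PHE), and the falls in PTU groups are those of Krt19 and Nes, with that of Synm in PTU+PHE (-0.32).

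Of 23 other intermediate filament genes 10 were expressed enough to be tested, and Krt80, Krt7 and Krt222 were among those called in PTU groups. Of these 10, 2 rose and 1 fell in PTU+PRO, 3 rose and 1 fell in PTU, 2 rose and 2 fell in PTU+PHE+PRO, and 2 rose and 2 fell in PTU+PHE, and none was called in PHE+PRO, PHE or PRO hearts. Over all genes the share called was 35.9% in PTU+PRO, 29.4% in PTU, 54.7% in PTU+PHE+PRO and 53.4% in PTU+PHE. Krt80, a type II keratin, stood at 9.87, 9.58 and 8.70 CPM in PTU hearts against 0.722, 0.551 and 0.628 CPM in saline hearts of set B, and rose by 3.88 log2 units (adjusted p = 2.5e-08). Krt7, a type II keratin of simple epithelia, rose by 2.98 in PTU+PHE+PRO (adjusted p = 0.00039) at 0.903, 1.32 and 0.293 CPM, against 0.190, 0.039 and 0.091 CPM in saline hearts of set A. Hearts without PTU held at most 0.222 CPM of Krt7, close to the 0.184 CPM of the filter on low counts, so its fold changes rest on few reads. Krt222, a keratin-like gene, fell by 1.82 in PTU (adjusted p = 1.7e-07) and by 2.35 in PTU+PHE+PRO (adjusted p = 2.4e-09). The neurofilament gene Nefm and the peripherin gene Prph rose in PTU by 1.57 and 1.08 (adjusted p = 0.015 and 0.046), and Sync, the desmin-binding syncoilin, fell by 0.99 in PTU+PHE+PRO (adjusted p = 0.00046).

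Genes that link filaments to junctions and sarcomeres, or chaperone them, moved in both directions. Of 15 tested, 5 rose and 4 fell in PTU+PRO, 4 rose and 4 fell in PTU, 3 rose and 5 fell in PTU+PHE+PRO, and 2 rose and 6 fell in PTU+PHE. In these groups 35.9%, 29.4%, 54.7% and 53.4% of all genes were called. The small heat shock protein genes Hspb1 and Cryab, whose proteins bind desmin, rose in PTU by 0.82 and 0.59 log2 units (adjusted p = 7.6e-05 and 0.001) and in PTU+PHE+PRO by 1.33 and 0.76 (adjusted p = 4.2e-08 and 2.8e-05). Mtm1, a phosphoinositide phosphatase that binds desmin, and Dtna, the alpha-dystrobrevin gene of the dystrophin complex, fell in PTU by 1.23 and 0.96 (adjusted p = 1.7e-07 and 1.6e-06). Dst, a giant linker of filaments to junctions, fell by 1.24 in PTU+PHE+PRO (adjusted p = 5.9e-08), a set in which long transcripts were low in PHE libraries, and stood at -0.15 in PTU.

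Of 18 partners of the lamins at the nuclear envelope 3 rose and 2 fell in PTU+PRO, 3 rose and 2 fell in PTU, 4 rose and 7 fell in PTU+PHE+PRO, and 4 rose and 9 fell in PTU+PHE. In these groups 35.9%, 29.4%, 54.7% and 53.4% of all genes were called. Tmpo, which encodes the lamin-binding LAP2 proteins, rose by 0.38 in PTU (adjusted p = 0.0028) and by 1.01 in PTU+PHE+PRO (adjusted p = 5.1e-09). Zmpste24, the protease that matures lamin A, fell by 0.40 and 0.57 (adjusted p = 0.00055 and 3.5e-06). Tor1aip1, the LAP1 gene, fell by 0.42 and 0.66 (adjusted p = 0.00046 and 8.5e-07), and Syne3, a nesprin gene, rose by 0.73 in PTU (adjusted p = 0.0096) but stood at -0.28 in PTU+PHE+PRO (adjusted p = 0.27).

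Likeness of pattern was measured over the 7 log2 fold changes against saline, as the root mean square difference from the member, among 12477 genes with a mean of at least 1 CPM. For Krt8 the nearest gene was Cdh26, a cadherin, at 0.79 log2 units, and for Krt18 it was Tmem130 at 0.78. For Krt19 it was Mgp, the matrix Gla protein gene, at 0.48, followed by Prr29 and Crybg1. For Nes they were Rhbdl3 and Alas1 at 0.20 and Itga9 at 0.22. For Vim they were Ptms, Relb and Fbxl6 at 0.07 to 0.09, for Synm Kctd1 at 0.09 and Zfp319 at 0.11, and for Lmnb1 Vsig10l, Perp and Pcgf2 at 0.09 to 0.16. The 7 comparisons share 2 saline groups.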

How the data were processed

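RNA of 27 whole mouse hearts was sequenced by the authors in 2 sets. The deposited table holds raw read counts per Ensembl gene; per the submitters' processing notes it was made with cutadapt 1.9, STAR 2.5.2b and featureCounts 1.5.1 on mm10, and per the labels' protocols RNA was taken with Trizol and libraries with the TruSeq RNA kit v2. The strand setting is not given in the sources used here. Symbols were matched for 51633 identifiers and not for 193. Columns were tied to samples by their names, and 2 columns that share a name were used as unnumbered hearts of PHE+PRO.

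Counts were scaled with TMM factors, filtered (minimum count 10, minimum total 15) and fitted with edgeR 4.0.16 (quasi-likelihood, robust; R 4.3.3) as 9 group means over all 27 libraries with 18 residual degrees of freedom, and p-values were adjusted by Benjamini and Hochberg over 19119 genes. The standard error is the log2 fold change over the root of F. Log2 ratios of gene pairs were compared by exact permutation. The 34 alternatives were DESeq2 1.42.0 and its size factors, no filter, a fit of each set alone, the replicate block, sex, a length offset (lowess span 0.3) and leaving out each of the 27 libraries. The replicate block used numbered hearts only, so it left out the 2 unnumbered PHE+PRO hearts and held 1 heart of that group. A block in the saline libraries alone was chosen after seeing the data.

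The members and gene lists were chosen with earlier results of these data known. From each list up to 4 genes with the smallest p in PTU and up to 4 in PTU+PHE+PRO were named, besides mesothelial markers. A gene with a pattern like that of Synm is not reported here. Whether hearts were independent animals or litters is not given, so p-values measure only the spread between these samples, with counts limiting the precision of Krt8 most. Equal replicate numbers deviated together between the saline groups of the 2 sets (r = 0.871, 0.872 and 0.914) and not in general between the other groups.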

Additional observations from a re-analysis of the deposited data

Results flagged for a closer look

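The effect of PTU on Krt18 under PHE was larger with PRO on board than without it, by 1.77 log2 units (interaction in edgeR's quasi-likelihood test, adjusted p = 0.036). Of 34 alternatives 22 called it, with 0.0023 as the lowest adjusted p and 0.14 in a fit of set A alone.

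Des lay on opposite sides in all hearts when PTU was set against saline of set B (higher, 0.16 ± 0.12 log2 units) and when PTU was added to PRO (lower, -0.35 ± 0.12). The effects differed by 0.511 log2 units, and the interaction that tests this (-0.51 ± 0.17, adjusted p = 0.53) did not pass.

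Nes was lower in all PTU+PRO hearts than in PTU hearts and higher in all PHE+PRO hearts than in PHE hearts, so that the effect of PRO differed by -0.93 log2 units between them. For Synm the directions were the other way round, with a difference of 0.504. These 2 differences lie across the sets and were not tested.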

How the results depend on the processing

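Over the values of single members under the alternatives, none of the called values changed direction; 4754 kept their side of the threshold, 57 passed it only in the alternative and 85 only as reported. The number of members called in PRO hearts was 2 with no filter, 2 by DESeq2, and 1 each in a fit of set B alone, with sex and with the length offset. In PHE hearts it was 0 in a fit of set A alone. In PHE+PRO hearts it was 0 in that fit and 3 by DESeq2. For the PTU by PRO interaction under PHE it was 0 in a fit of set A alone, 0 with sex and 2 by DESeq2. PRO added to PTU had 1 in a fit of set B alone. The replicate block held 1 PHE+PRO heart, so its counts are left out where that group was compared. The fit of set A alone called 78 of all genes in PHE hearts, against 2827 in the fit of all libraries. Fewer calls in that comparison were therefore not particular to the members, and the reason was not tested.

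Over all 92 pairs of equal replicate numbers the mean r of the deviations was -0.014 (from -0.581 to 0.925), while the 3 saline pairs across the sets had r = 0.871, 0.872 and 0.914. In a block fit of the saline libraries alone, set A differed from set B for 3 members, Vim (0.12), Lmna (-0.09) and Lmnb1 (-0.28 log2 units). The share of all genes called in that fit is not given here, so the count is not read as a result about the members. Without that block none was called, 0 had an unadjusted p under 0.05 in edgeR, and DESeq2 called 0.

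With 1 CPM added, the Krt18 to Krt8 ratio differed from saline by -0.14 in PRO, 0.12 in PHE+PRO, 1.56 in PTU+PHE and 2.32 in PTU+PHE+PRO. Leaving out 1 heart, it ran from 1.0 to 1.63 in PTU+PRO, 0.29 to 0.92 in PTU, 0.41 to 1.05 in PRO, 1.56 to 1.95 in PTU+PHE+PRO, 0.8 to 0.97 in PTU+PHE, 1.02 to 1.24 in PHE+PRO and 0.11 to 0.33 in PHE. The Lmna to Lmnb1 ratio ran from -1.16 to -0.9 in PTU+PRO, -0.72 to -0.46 in PTU, -0.49 to -0.23 in PRO, -1.4 to -0.76 in PTU+PHE+PRO, -1.03 to -0.77 in PTU+PHE, -0.13 to 0.12 in PHE+PRO and -0.22 to 0.03 in PHE. Leaving out 1 library, members called ran from 5 to 8 in PTU+PRO, 6 to 8 in PTU, 0 to 1 in PRO, 6 to 7 in PTU+PHE+PRO, 6 to 9 in PTU+PHE, 0 to 4 in PHE+PRO, 0 to 4 in PHE, 0 to 1 for PRO added to PTU, 2 to 3 for PRO added to PHE and 0 to 2 for the interaction under PHE. Depth limits Krt8 in PRO hearts (3, 8 and 5 reads).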

Other observations

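Among the other cell types, smooth muscle and pericyte markers moved in both directions: of 9, 2 rose and 4 fell in PTU+PRO, 4 rose and 3 fell in PTU, 3 rose and 3 fell in PTU+PHE+PRO, and 3 rose and 4 fell in PTU+PHE. Of 12 cardiomyocyte markers 1 rose and 6 fell in PTU+PRO, 1 rose and 5 fell in PTU, 2 rose and 5 fell in PTU+PHE+PRO, and 3 rose and 4 fell in PTU+PHE. Of 6 nerve and Schwann cell markers tested 1 rose and 2 fell in PTU+PRO, none rose and 1 fell in PTU, and 1 rose and 2 fell in each of PTU+PHE+PRO and PTU+PHE. Beside these 3 lists, the share of all genes called was 35.9% in PTU+PRO, 29.4% in PTU, 54.7% in PTU+PHE+PRO and 53.4% in PTU+PHE.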
